A study of Mus musculus with 8 samples.

Results

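Genes that mark haematopoietic stem and multipotent progenitor cells were followed in common lymphoid progenitors of E2A knockout, HEB knockout and wild-type (WT) mice. The set held 8 genes, Angpt1, Tek, Procr, Slamf1, Cd34, Mecom, Hlf and Hhex, out of 18193 genes with a probe set of their own on the array. They were chosen by symbol, and all 14 probe sets annotated to them were used, out of 34945 probe sets that name a single gene. The cells were bone marrow cells without lineage markers, positive for FLT3 and CD127 and negative for LY6D, sorted by flow cytometry from C57BL/6 mice of 10 to 13 weeks. There were 4 arrays of E2A knockout, 2 of HEB knockout and 2 of WT cells. E2A (made from Tcf3) and HEB (made from Tcf12) are E proteins, transcription factors of the basic helix-loop-helix family that pair up and bind DNA. Each array held RNA of cells pooled from several marrows, and each genotype was sorted on 2 or more occasions, so the spread described is that between pools. The sources used here do not give the alleles or the part of each gene that was deleted.

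A lymphoid progenitor descends from a haematopoietic stem cell through multipotent stages and loses the genes of those stages step by step. The genes in the set act at different points of stem cell life. Angpt1 encodes a secreted ligand and Tek its receptor tyrosine kinase TIE2, a pair known for vessel stability and for stem cell quiescence. Procr (the endothelial protein C receptor), Slamf1 (CD150) and Cd34 (a sialomucin) are surface proteins used to sort stem and progenitor cells in the mouse. Mecom, Hlf and Hhex encode transcription factors: MECOM is a zinc finger protein needed by stem cells, HLF belongs to the PAR bZIP family, and HHEX is a homeodomain protein that is also needed for early lymphoid development.

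Bound sites of E proteins carry the E-box letters CANNTG, with a GC or a CC (GG on the other strand) at its centre in the preferred forms. RefSeq promoter windows of build GRCm38.p6 ran from 250 bases before to 50 bases after an annotated start. For Procr, Tek and a Mecom window that start lies inside the gene. Windows were matched for 7 of the 8 genes, with 8 windows in all. Of these, 5 held CANNTG on either strand, where 72.3% of all 32851 windows in the table did. The form CAGCTG stood in 2 of them, against 16.3% of all windows. The form CACCTG, read on either strand, stood in 2, against 20.2%. Procr, which is dim in these cells, held CAGCTG 34 bases before its annotated start, within the gene at chr2:155751125-155755478. Hhex and Cd34 held no E-box at all. The 250 bases before the start are shown for the 3 genes that have a matched window and were above the array median on all 8 arrays. Hhex lies at chr19:37434841-37440731, and its upstream bases at chr19:37434591-37434840 (plus strand) hold no E-box. Cd34 lies at chr1:194938821-194961292, and its upstream bases at chr1:194938571-194938820 (plus strand) hold none either. Hlf lies at chr11:90336535-90390917, and its upstream bases at chr11:90390918-90391167 (minus strand) hold a CACCTG that begins 162 bases before the start, in capitals. A second box of the Hlf window, CACATG, begins at base 18 after the start and is not shown. A match is a description of the letters and says nothing of binding in these cells.
Hhex: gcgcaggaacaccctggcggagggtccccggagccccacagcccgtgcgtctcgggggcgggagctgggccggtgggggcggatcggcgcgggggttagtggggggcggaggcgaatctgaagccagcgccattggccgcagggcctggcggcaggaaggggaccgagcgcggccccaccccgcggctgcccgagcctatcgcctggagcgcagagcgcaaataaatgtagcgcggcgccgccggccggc
Cd34: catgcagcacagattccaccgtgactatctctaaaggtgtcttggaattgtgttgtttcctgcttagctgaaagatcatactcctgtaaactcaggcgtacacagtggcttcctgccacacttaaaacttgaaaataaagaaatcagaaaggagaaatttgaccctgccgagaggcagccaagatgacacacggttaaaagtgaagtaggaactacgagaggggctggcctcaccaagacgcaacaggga
Hlf: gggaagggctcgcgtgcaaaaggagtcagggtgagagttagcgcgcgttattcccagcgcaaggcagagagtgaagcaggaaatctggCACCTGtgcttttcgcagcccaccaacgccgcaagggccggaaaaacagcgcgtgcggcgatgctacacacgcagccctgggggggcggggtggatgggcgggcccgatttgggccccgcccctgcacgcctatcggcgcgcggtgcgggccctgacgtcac

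Values are log2 of the deposited array intensity, and a value can be compared between arrays for the same probe set but not between probe sets. The median intensity of an array was 15.02 to 15.41 for E2A knockout, 14.14 and 14.35 for HEB knockout, and 14.81 and 14.51 for WT. The upper quartile had the opposite order, with 54.88 to 62.75 for E2A knockout, 68.51 and 63.32 for HEB knockout, and 64.5 and 66.11 for WT. The targeted genes were low where the labels say so. Tcf3 averaged 3.99 ± 0.24 in E2A knockout (SD, n = 4) and 7.87 ± 0.15 in WT cells (n = 2), and Tcf12 averaged 6.79 ± 0.43 in HEB knockout and 8.81 ± 0.06 in WT cells (n = 2 each), each at its brightest probe set. The Tcf12 difference of -2.01 (SE 0.26) did not pass the test (limma adjusted p = 0.328), and it ranged from -2.36 to -0.89 under other processing. Of the lymphoid progenitor markers, 8 of 9 were on the array and none lay below the median on all arrays. Flt3 averaged 10.32 ± 0.17 in E2A knockout, 10.77 ± 0.38 in HEB knockout and 10.57 ± 0.14 in WT cells. Il7r, which encodes CD127, fell to 8.55 ± 0.48 in E2A knockout cells, against 10.71 ± 0.28 in WT cells (limma adjusted p = 0.033). That call was lost without either WT array, either HEB knockout array or E2A knockout replicate 1, with adjusted p-values up to 0.316. Although the cells were sorted as LY6D-negative, Ly6d read 6.75, 4.48, 4.26 and 6.88 on the E2A knockout, 7.52 and 3.63 on the HEB knockout and 3.53 and 7.83 on the WT arrays. HEB knockout replicate 1 and WT replicate 2, high for Ly6d, also had the lowest hybridization control signal, 10.32 and 10.29 against 11.40 to 12.62 on the other arrays. E2A knockout replicates 1 and 4, also high for Ly6d, had 11.52 and 12.44, and the other E2A knockout arrays 12.03 and 12.62. The actin signal at the 3′ end minus that at the 5′ end, a measure of RNA quality, was 3.86 to 4.78 in E2A knockout, 3.37 and 3.58 in HEB knockout and 4.45 and 3.84 in WT cells on the log2 scale, and its part in the results was not tested.

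Of the 8 genes, 5 (Angpt1, Cd34, Mecom, Hlf and Hhex) were bright enough to be tested, and 3 (Tek, Procr and Slamf1) were not. To be tested, the brightest probe set of a gene had to exceed the median of its array on 2 or more arrays, which left 11957 genes. By probe set, 8 of the 14 met this filter. A difference was called if its p, from a limma model over all arrays and adjusted over all 11957 genes by the Benjamini-Hochberg method, was under 0.05.

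In E2A knockout cells the largest differences from WT were those of Angpt1 and Hhex, both toward lower signal, and no member passed the test. The log2 difference between E2A knockout and WT cells was negative for all 5 tested members, with a median of -0.66 against -0.053 over all tested genes. Among all tested genes 54.9% were negative. The median over all genes was 0.061 without the filter and -0.157 with a filter at the 75th percentile, so it changed with brightness. The part of brightness in the differences of the members was not tested. None of the 5 was called, where 0.443% of all tested genes were called (53 genes, 47 of them lower), and the adjusted p-values of the 5 ran from 0.14 to 0.907. At an unadjusted p under 0.05, 2 members (Angpt1 and Hhex) were lower, and 9.8% of all tested genes were. The same 2 had all 4 E2A knockout arrays below both WT arrays, which 15.4% of tested genes had. In a bulk sample, fewer cells that carry a transcript and less of it per cell cannot be told apart.

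Angpt1 (chr15:42424667-42676977, GRCm38.p6), the ligand of TIE2, had the largest difference of the tested members. Its brightest probe set read 4.46, 5.69, 5.76 and 4.76 on the E2A knockout arrays, 6.51 and 7.36 on the HEB knockout arrays and 6.67 and 7.03 on the WT arrays. Every E2A knockout array lay below every array of the other genotypes, and the HEB knockout and WT arrays overlapped. The mean was 5.17 ± 0.66 in E2A knockout (n = 4) and 6.85 ± 0.25 in WT cells (n = 2), a log2 difference of -1.68 (3.21-fold, SE 0.42, 95% interval -2.64 to -0.73). That difference was larger in size than those of 98.7% of tested genes, yet it did not pass the test (limma adjusted p = 0.14). Its SE was above the median SE of 0.28 in that comparison. Leaving out any 1 array gave differences from -1.88 to -1.45. The second probe set of Angpt1 was dim and met the filter through only 2 arrays. It read 3.54, 3.53, 3.70 and 3.24 on the E2A knockout, 3.39 and 4.35 on the HEB knockout and 4.39 and 3.71 on the WT arrays. Its difference of -0.55 (SE 0.31) between E2A knockout and WT cells was smaller than that of the brighter probe set.

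Hhex, the homeodomain factor, read 8.79, 7.97, 8.29 and 8.75 on the E2A knockout arrays, 9.28 and 9.15 on the HEB knockout arrays and 9.33 and 9.48 on the WT arrays. Again the E2A knockout arrays all lay below the others. The HEB knockout arrays were just below the WT arrays. The mean was 8.45 ± 0.39 in E2A knockout (n = 4) and 9.40 ± 0.11 in WT cells (n = 2), a log2 difference of -0.95 (1.94-fold, SE 0.27, 95% interval -1.57 to -0.34). It did not pass the test (limma adjusted p = 0.187), and without 1 array it ranged from -1.07 to -0.79.

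**Figure D1:**
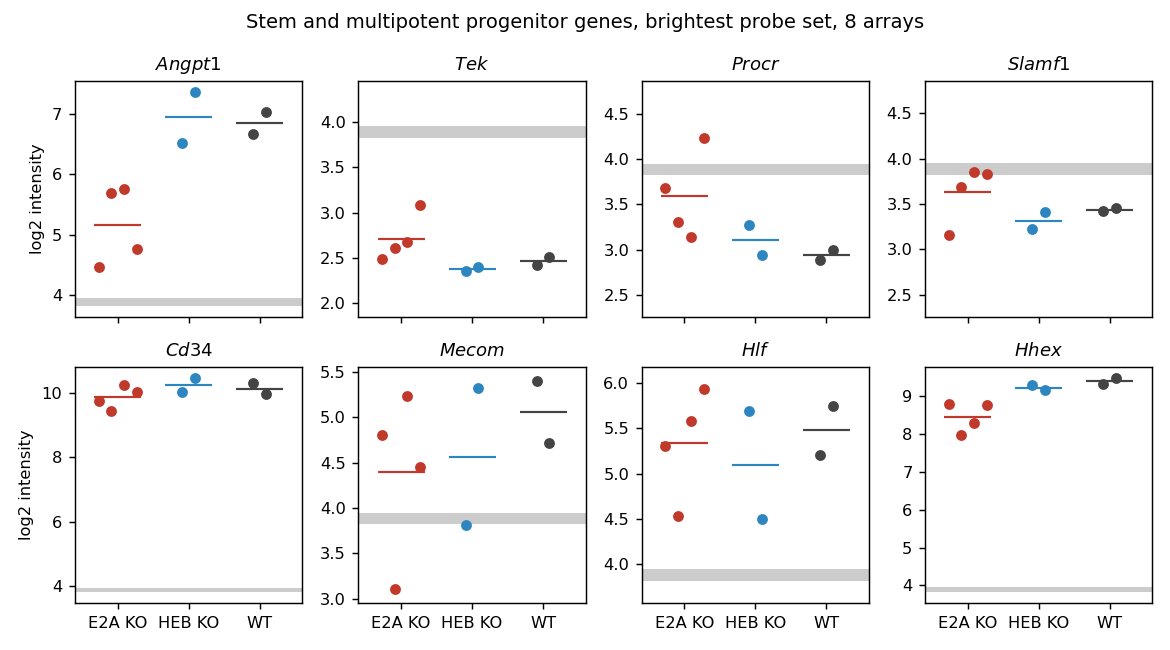
Log2 intensity (vertical axis, its own scale in each panel) of the brightest probe set of each of the 8 genes on 4 E2A knockout, 2 HEB knockout and 2 WT arrays. Points are arrays, lines are means and the grey band is the range of the array medians; for Angpt1 and Hhex all 4 E2A knockout points lie below the WT and HEB knockout points, and for Tek every point lies below the band.

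Cd34, the sialomucin of stem and progenitor cells, was bright on all 8 arrays. It read 9.75, 9.44, 10.23 and 10.03 on the E2A knockout arrays, 10.03 and 10.46 on the HEB knockout arrays and 10.29 and 9.96 on the WT arrays. The genotypes overlapped. The difference between E2A knockout and WT cells was -0.26 (SE 0.27, 95% interval -0.88 to 0.36, limma adjusted p = 0.697), and a difference as low as -0.88 lies within that interval.

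Mecom and Hlf, the other transcription factors of stem cells, varied more between arrays of 1 genotype than between genotypes. The brightest probe set of Mecom read 4.81, 3.11, 5.24 and 4.45 on the E2A knockout arrays, 3.81 and 5.32 on the HEB knockout arrays and 5.40 and 4.72 on the WT arrays. It lay above the array median on 6 arrays and below it on E2A knockout replicate 2 and HEB knockout replicate 1. Its difference between E2A knockout and WT cells was -0.66 with an SE of 0.60 (95% interval -2.02 to 0.71, limma adjusted p = 0.653). The 2 other probe sets of Mecom were dimmer and differed by 0.26 (SE 0.31) and 0.16 (SE 0.14), opposite in sign to the brightest.

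Hlf was above the median on all 8 arrays at both of its probe sets. The brighter read 5.31, 4.53, 5.58 and 5.93 on the E2A knockout, 5.69 and 4.50 on the HEB knockout and 5.21 and 5.75 on the WT arrays. The other read 4.50, 4.08, 5.74 and 5.30 on the E2A knockout, 4.70 and 5.03 on the HEB knockout and 5.81 and 4.93 on the WT arrays. The genotypes overlapped at both, and E2A knockout replicate 2 was the lowest of its genotype at both. The differences between E2A knockout and WT cells were -0.14 (SE 0.44) and -0.46 (SE 0.47), and the first gave a positive sign, 0.12 and 0.13, without WT replicate 2 or without E2A knockout replicate 2.

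The receptors Tek, Procr and Slamf1 gave little signal in any genotype. Tek, the receptor of Angpt1, read 2.49, 2.61, 2.67 and 3.08 in E2A knockout, 2.35 and 2.40 in HEB knockout and 2.42 and 2.51 in WT cells, all below the array medians. Slamf1 was below the median on all 8 arrays at all 3 of its probe sets. Its brightest read 3.16, 3.69, 3.85 and 3.83 on the E2A knockout, 3.22 and 3.41 on the HEB knockout and 3.42 and 3.45 on the WT arrays. Procr read 3.68, 3.31, 3.14 and 4.23 on the E2A knockout, 3.27 and 2.94 on the HEB knockout and 2.89 and 3.00 on the WT arrays. Its 4 E2A knockout arrays lay above both WT arrays, and E2A knockout replicate 4 was the only array on which it passed the median. In a fit of all 45037 probe sets without a filter, Procr differed by 0.65 (SE 0.30, limma adjusted p = 0.509) between E2A knockout and WT cells, Tek by 0.25 (SE 0.19, adjusted p = 0.654) and Slamf1 by 0.20 (SE 0.22, adjusted p = 0.751). With signal this near the floor, these values set no bound on the transcripts. In the same fit 0 of the 14 probe sets were called, where 37 of all probe sets were (0.0822%), and 2 had an unadjusted p under 0.05, where 10.2% of all probe sets had. Arrays of E2A knockout and WT cells did not overlap at 4 of the 14 (3 lower, 1 higher), which held for 22.1% of all probe sets.

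**Figure D2:**
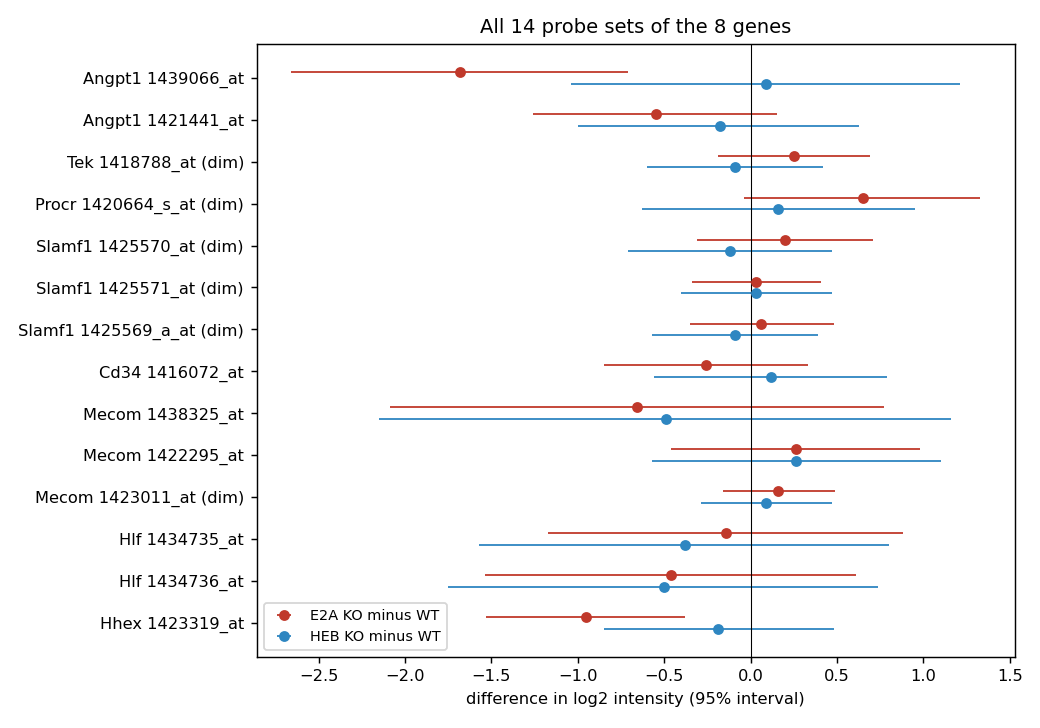
Difference in log2 intensity (horizontal axis) of E2A knockout minus WT (red) and HEB knockout minus WT (blue) for all 14 probe sets, with 95% intervals from the fit of all probe sets; dim marks the 6 that did not meet the filter. Of the E2A knockout intervals, those of the brightest Angpt1 and Hhex probe sets lie wholly below 0, and no HEB knockout interval excludes 0; both comparisons share the WT arrays.

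HEB knockout cells were then set against WT cells. None of the 5 tested members was called, and no gene of the 11957 was (0%), the targeted Tcf12 included. At an unadjusted p under 0.05 limma gave 312 genes (2.61%) and 0 members. The adjusted p-values of the members were all 1. Angpt1 averaged 6.93 ± 0.60 in HEB knockout and 6.85 ± 0.25 in WT cells (n = 2 each), a difference of 0.09 (SE 0.49, 95% interval -1.01 to 1.19). Hhex averaged 9.22 ± 0.09 in HEB knockout and 9.40 ± 0.11 in WT cells (n = 2 each), a difference of -0.19 (SE 0.31, 95% interval -0.90 to 0.52). The difference was 0.12 (SE 0.32) for Cd34, -0.49 (SE 0.69) for Mecom and -0.38 (SE 0.51) for Hlf. The median of the 5 was -0.19, against 0.086 over all tested genes, and 3 of the 5 were negative, against 38.2% of all. Of the 5 tested members, 1 (Hhex) had both HEB knockout arrays below both WT arrays, which 11.4% of tested genes had. The brightest probe sets of Tek and Slamf1, too dim to be tested, had the same order, and the dimmest probe set of Mecom the opposite one. With 2 arrays against 2 and signal near the floor, nothing is read from these orders. The signs for Angpt1, Cd34, Mecom and Hlf turned when 1 array was left out, so these small differences have no settled direction.

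E2A knockout cells were set against HEB knockout cells to compare the losses with each other. None of the 5 tested members was called, where 0.117% of tested genes were (14 genes). Angpt1 differed by -1.77 (3.41-fold, SE 0.42, 95% interval -2.72 to -0.81, limma adjusted p = 0.135) and Hhex by -0.77 (1.70-fold, SE 0.27, limma adjusted p = 0.227), with the E2A knockout arrays lower and apart at both. That separation was found for 21.6% of tested genes. Both had an unadjusted p under 0.05, as did 13.8% of tested genes in the lower direction. Cd34 differed by -0.38 (SE 0.27), Mecom by -0.16 (SE 0.60) and Hlf by 0.24 (SE 0.44). Of the 5, 4 were negative, where 62.9% of tested genes were. The median of the 5 was -0.38, and the median of all tested genes was itself below 0, at -0.163.

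**Figure D3:**
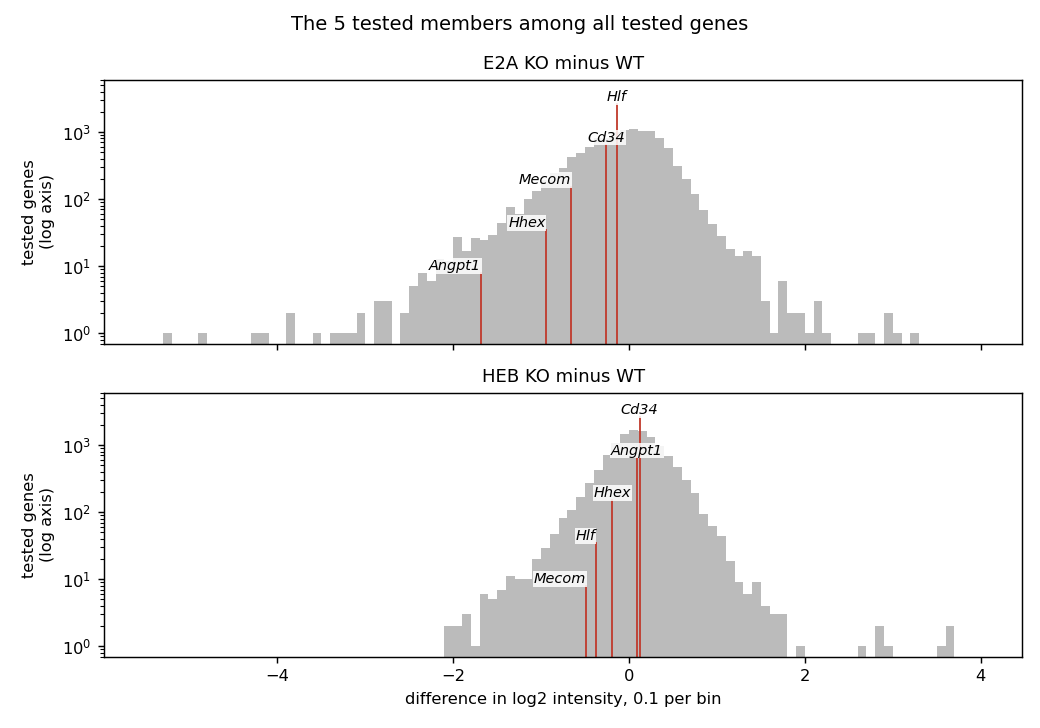
Number of tested genes (vertical log axis) by difference in log2 intensity (horizontal axis, bins of 0.1) for E2A knockout minus WT (top) and HEB knockout minus WT (bottom), with the 5 tested members as red lines. Angpt1 (-1.68) and Hhex (-0.95) stand in the lower tail of the upper panel, and all 5 members stand in the body of the lower panel.

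Mecom varied within HEB knockout and within WT cells as much as between them. It was 5.32 on HEB knockout replicate 2 and 5.40 on WT replicate 1, where Ly6d read 3.63 and 3.53, and 3.81 and 4.72 on HEB knockout replicate 1 and WT replicate 2, where Ly6d read 7.52 and 7.83. The second probe set of Angpt1 was 4.35 and 4.39 on the first pair and 3.39 and 3.71 on the second. The brightest Angpt1 probe set did not keep that order, with 7.36 and 6.67 on the first pair and 6.51 and 7.03 on the second. The brighter Hlf probe set had the opposite order, with 4.50 and 5.21 on the first pair and 5.69 and 5.75 on the second. In E2A knockout cells Mecom was lowest, at 3.11, on replicate 2, where Ly6d was low at 4.48. With the hybridization control signal as a covariate, the difference between E2A knockout and WT cells was -2.22 for Angpt1 and -0.77 for Hhex, and neither was called. That signal was 11.52 to 12.62 on the E2A knockout and 11.40 and 10.29 on the WT arrays. The covariate therefore cannot be fully separated from genotype in this comparison. With HEB knockout replicate 1 and WT replicate 2 both left out, which was added once the values had been seen, the difference between E2A knockout and WT cells was -1.50 for Angpt1 and -0.88 for Hhex, with 1 WT array left.

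Genes whose centred values lay nearest to each member over the 8 arrays were found by their root mean square difference, for the 3 tested members whose values spanned over 1.5 on the log2 scale. Nearest to Angpt1 were Lyz2 (root mean square difference 0.335), Lyz1 (0.347) and Sgsm1 (0.376). Lyz1 and Lyz2 encode near-identical lysozymes, and their probe sets may read each other's transcripts. They differed between E2A knockout and WT cells by -1.81 (Lyz1, limma adjusted p = 0.0612) and -1.49 (Lyz2, limma adjusted p = 0.118). Nearest to Hhex were Slc25a36 (0.107), Plekha2 (0.118) and the calcium sensor gene Stim2 (0.124), which differed by -1.01, -0.91 and -0.95 in that comparison. Nearest to Mecom were Wdfy3 (0.273), Cep85 (0.304) and Ddx4 (0.309). The 8 arrays are what the values of each pair share.

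Other genes of stem and multipotent cells were read in the same comparison. Of 23 tested transcription factors of self-renewal and multipotency, 1 fell in E2A knockout cells, 0 rose and 22 did not pass, with a median of -0.38. Hmga2, a chromatin protein of fetal stem cells, was the one that fell, with 5.40, 5.93, 6.31 and 4.96 on the E2A knockout and 7.87 and 7.70 on the WT arrays. Its difference was -2.14 (SE 0.35, limma adjusted p = 0.048), and the HEB knockout arrays, at 7.14 and 7.02, lay between. The call was lost without any one of the arrays except E2A knockout replicate 3, with adjusted p-values up to 0.316. E2A knockout arrays lay wholly below WT for 11 of the 23, where 15.4% of all tested genes had that order. The list was chosen with earlier results of these data known, and that share was not matched for brightness. No conclusion is drawn from the count. Meis1, a homeobox partner of HOX proteins, read 7.74, 7.27, 7.36 and 7.76 on the E2A knockout and 8.79 and 8.68 on the WT arrays (-1.20, SE 0.24, limma adjusted p = 0.0811).

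Of 16 tested surface proteins and regulators, 1 fell, 0 rose and 15 did not pass, with a median of -0.28. Cd93, a C-type lectin-like receptor of early progenitors, was the one that fell. It read 10.21, 10.26, 10.16 and 10.24 on the E2A knockout arrays, 11.61 and 11.42 on the HEB knockout arrays and 11.49 and 11.63 on the WT arrays, so that E2A knockout stood apart from both. Its difference from WT was -1.34 (SE 0.19, limma adjusted p = 0.0273), and the call was lost in each fit without 1 array other than E2A knockout replicate 3, with adjusted p-values up to 0.29. Kit, the stem cell factor receptor, read 5.38, 4.05, 3.98 and 4.81 on the E2A knockout and 6.61 and 6.66 on the WT arrays. Its difference was -2.08 (SE 0.41, limma adjusted p = 0.0823). Of 19 alternatives, only leaving out E2A knockout replicate 1 brought the limma adjusted p under 0.05 (0.0498). Without E2A knockout replicate 2, 3 or 4 it was 0.149, 0.0857 and 0.116. With the Kit probe sets averaged, the difference shrank to -1.09 (limma adjusted p = 0.176). With the hybridization control signal as a covariate it was -1.38 (limma adjusted p = 0.618). Kit and Meis1 were named after their values were seen. In HEB knockout cells no gene of either list passed. The smallest p-values there belonged to Hmga2 (-0.70, SE 0.41) and Gfi1b (0.82, SE 0.48) among the transcription factors, and to Robo4 (-0.59, SE 0.24) and Cd9 (0.48, SE 0.26) among the others.

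**Figure D4:**
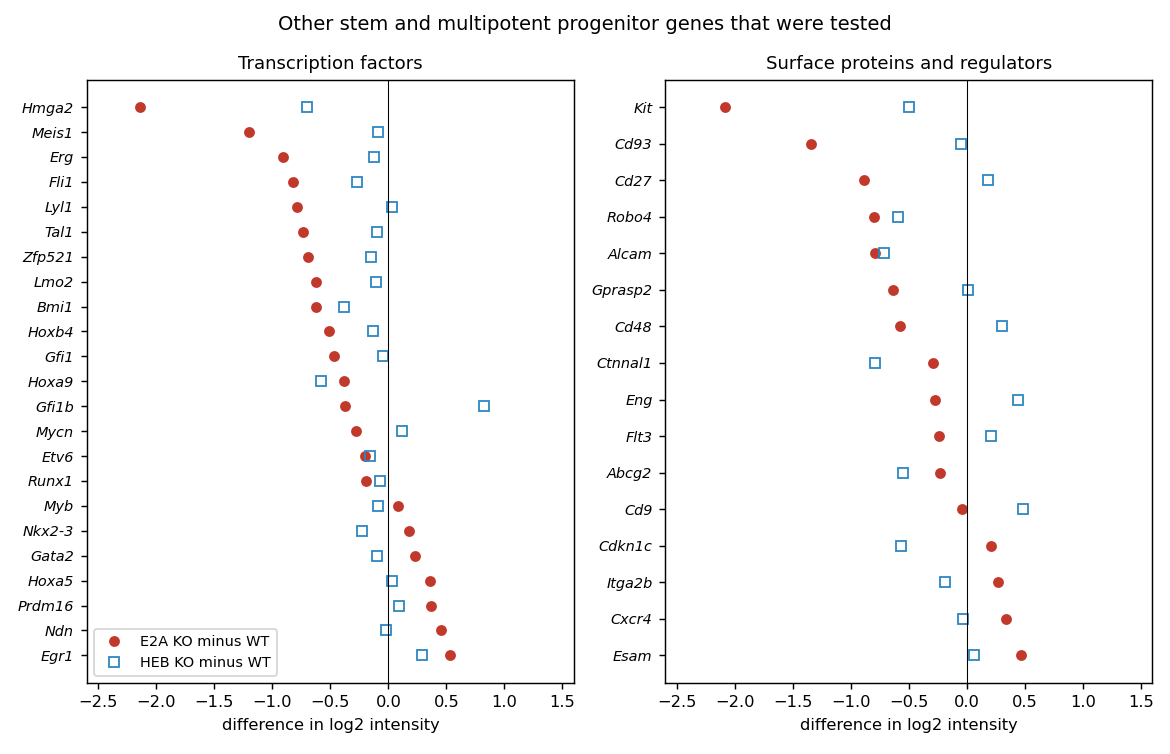
Difference in log2 intensity (horizontal axis) from WT of 23 transcription factors (left) and 16 surface proteins and regulators (right), with E2A knockout as filled circles and HEB knockout as open squares. Hmga2 (-2.14) and Cd93 (-1.34) are the 2 that passed the test for E2A knockout, none passed for HEB knockout, and both comparisons share the WT arrays.

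No gene of the smaller lists around single members was called in E2A knockout cells. In the angiopoietin and TIE receptor pathway 8 of 11 genes were tested, with a median of 0.18. The smallest p-values were those of Pik3r1, a regulatory subunit of PI3 kinase (-0.89, SE 0.23, limma adjusted p = 0.155), and of Dok2, an adaptor that binds TIE2 (-0.85, SE 0.35). Among 5 tested genes of the SLAM family and its adaptors, Cd48 differed by -0.58 (SE 0.25) and Slamf9 by 0.55 (SE 0.25), with a median of -0.49. The protein C pathway had 4 tested genes and a median of -0.03, led by F2r, the thrombin receptor (-1.28, SE 0.54), and Pros1, protein S (0.15, SE 0.29). All 3 genes of the PAR bZIP list were negative (median -0.57), with Tef at -0.50 (SE 0.20) and the repressor Nfil3 at -0.79 (SE 0.40). Of 6 tested partners and relatives of MECOM, Hdac1 differed by -0.58 (SE 0.29) and Prdm16 by 0.37 (SE 0.24), with a median of -0.16. In HEB knockout cells none of these lists held a called gene, and Thbd, thrombomodulin, had the smallest p of them (1.21, SE 0.47, limma adjusted p = 1).

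Markers of other cells that express these genes were read beside them. Angpt1, Tek, Procr and Cd34 are also made by endothelial or stromal cells of the marrow. All 10 endothelial markers were on the array, and their summed intensity was 250.5 to 320.2 on the E2A knockout, 803.1 and 526.4 on the HEB knockout and 559.4 and 962.4 on the WT arrays. Emcn and Tie1 were below the median on every array. Egfl7, which blood progenitors also express, differed by -2.01 (SE 0.34, limma adjusted p = 0.0507) and Robo4 by -0.80 (SE 0.21) between E2A knockout and WT cells. Of the 6 endothelial markers tested, 3 were negative and 3 positive, with Esam at 0.47 (SE 0.31) and Kdr at 0.45 (SE 0.28), both named after their values were seen. Of the marrow stroma markers 9 of 10 were on the array, and 6 of these (Col1a1, Col3a1, Cxcl12, Kitl, Lepr and Pdgfra) were below the median on all arrays. Their summed intensity was 157.6 to 358.6 on the E2A knockout, 824.8 and 699.9 on the HEB knockout and 954.0 and 793.5 on the WT arrays. Pdgfrb, which differed by -2.24 (SE 0.49, limma adjusted p = 0.103), and Col1a2 (0.49, SE 0.19) had the smallest p-values of the 3 tested, of which 1 was negative. In WT cells Pdgfrb made up most of the stroma signal and Egfl7 most of the endothelial signal. Pdgfrb averaged 7.38 in E2A knockout and 9.62 in WT cells, and Egfl7 averaged 7.21 in E2A knockout and 9.21 in WT cells. The endothelial and stroma sums, like Angpt1, were lower on every E2A knockout array than on any other array. Within genotypes they did not follow it throughout. On HEB knockout replicates 1 and 2 Angpt1 read 6.51 and 7.36, and both sums had the opposite order. On WT replicates 1 and 2 it read 6.67 and 7.03, and the endothelial sum had its order while the stroma sum did not. The part of these sums in the Angpt1 difference was not tested.

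Lymphoid progenitor markers summed to 8808 to 12170 on the E2A knockout, 19950 and 19120 on the HEB knockout and 20530 and 22990 on the WT arrays, and Ccr9, Notch1 and Il7r fell in E2A knockout cells. The call for Notch1 was lost without either WT array (adjusted p = 0.13 and 0.235) and that for Ccr9 without WT replicate 2 (adjusted p = 0.0571). All 8 measured markers of that list had a negative difference. B-lineage markers summed to 295.8 to 503.8 on the E2A knockout, 1130 and 673.2 on the HEB knockout and 888.5 and 1748 on the WT arrays, with Blnk at -3.24 (SE 0.56) and Ebf1 at -3.06 (SE 0.75) in E2A knockout cells. Ebf1 read 4.36 and 6.90 on the WT arrays, and its difference was -1.79 without WT replicate 2. Of the 9 B-lineage markers 0 were called and 7 were negative. Neutrophil and monocyte markers summed to 2877 to 5788 on the E2A knockout, 5047 and 7302 on the HEB knockout and 3502 and 3684 on the WT arrays, with 0 of 12 called and 6 negative in E2A knockout cells. Csf1r differed there by -1.36 (SE 0.32) and Lyz2 by -1.49 (SE 0.35), and Mpo by 0.70 (SE 0.31). In HEB knockout cells 9 of the 12 differences from WT were positive, where 38.2% of all tested genes were negative. S100a8 differed by 3.63 (SE 1.79), Ngp by 3.58 (SE 1.54) and Ltf by 2.87 (SE 0.85), none of them called. Mpo, S100a8, Ngp and Ltf were named after their values were seen. Megakaryocyte and erythroid markers summed to 1023 on E2A knockout replicate 1 and to 222.8 to 269.3 on the other E2A knockout arrays, 194.3 and 251.7 on the HEB knockout and 243.1 and 215.6 on the WT arrays, with Gp5, Hba-a1 and Ppbp below the median throughout. Mast cell and basophil markers summed to 104.0 to 141.6 on the E2A knockout, 95.66 and 110.6 on the HEB knockout and 67.79 and 99.78 on the WT arrays, with Fcer1a and Ms4a2 below the median throughout. T and NK markers summed to 383.2 to 743.0 on the E2A knockout, 948.2 and 792.3 on the HEB knockout and 555.8 and 994.0 on the WT arrays, with Cd3g, Gzmb and Tbx21 below the median throughout.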

How the data were processed

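Total RNA of sorted cells was amplified over more than 1 round, labelled with biotin and hybridised to Affymetrix arrays, per the labels' protocols. The deposited intensity values per probe set were made with RMA, per the submitters' processing notes. The sources used here give neither its version nor the chip definition. The deposited values were linear, as their range shows, and log2 was taken with no pseudocount and no further normalization. Of 45101 probe sets, 64 were controls, 34945 named 1 gene, 932 several and 9160 none in the annotation used. Each gene was read at the probe set with the highest mean over the 8 arrays. limma (version 3.58.1, R 4.3.3) fitted a mean per genotype to all 8 arrays (5 residual degrees of freedom), and tests were two-sided. Precision is limited by the number of arrays, with a median SE of 0.28 (E2A knockout minus WT) and 0.323 (HEB knockout minus WT) on the log2 scale. The script was tested on simulated data. No 2 arrays were identical.

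The members, the gene lists and the tests were chosen with earlier results of these data known. Genes were named by a rule: all members, Tcf3, Tcf12 and the sort markers, from each list up to 3 called genes or else the 2 with the smallest p, and the 3 nearest genes of members with a wide span. Not all genes the rule picks are printed. Lists were described by counts and medians only. Alternatives were other filters, normalizations, probe set choices and variance models, fewer arrays, a replicate block and a control-signal covariate. The control signal was higher on every E2A knockout array than on either WT array, so that covariate is partly bound to genotype.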

Additional observations from a re-analysis of the deposited data

Results flagged for a closer look

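Among the 14 probe sets, 1 had an E2A knockout array standing apart from its group: the dimmest probe set of Slamf1 read 2.50 on replicate 2, against 2.71 to 2.74 on the other 3 arrays. The gap took 0.899 of the group's range and passed Dixon's critical ratio for 4 arrays; every value lay below the array medians. Chance flags about 1 in 20 such groups.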

How the results depend on the processing

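No member was called in any comparison under any of the 19 alternatives. Of 450 member values recomputed, 432 kept their sign (or, for the dim genes, stayed within the spread between arrays). Many of these could not change. The filters, the fit of all probe sets, the variance models and leaving out arrays of the genotype not compared give the same difference by design. The count is therefore no measure of stability. Angpt1 ranged from -2.22 to -1.12 and Hhex from -1.07 to -0.77 between E2A knockout and WT cells, with adjusted p from 0.0916 to 0.731 and from 0.137 to 0.799. With 2 WT and 2 HEB knockout arrays, a call depends closely on the spread of the gene. The sign turned in HEB knockout against WT for Angpt1 with cyclic loess (-0.01) and the mean of all probe sets (-0.05). Without 1 array that comparison ranged from -0.34 to 0.51 for Angpt1, -0.10 to 0.33 for Cd34, -1.25 to 0.26 for Mecom and -0.98 to 0.21 for Hlf. Hlf in E2A knockout against WT turned with the control-signal covariate (0.25), without WT replicate 2 and HEB knockout replicate 1 (0.12), and ranged from -0.41 to 0.13 without 1 array. In E2A against HEB knockout Hlf turned with the replicate block (-0.18), and without 1 array Hlf ranged from -0.35 to 0.83 and Mecom from -0.92 to 0.59. Of the other genes, in E2A knockout against WT, Tcf12 (0.26) and Prdm16 (-0.03) turned with the mean of all probe sets, and Flt3 (0.02) and Pros1 (-0.24) with the covariate. The cause of these turns was not tested.

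The number of called genes in E2A knockout against WT was 53, and 91 with trend and robust variances, 26 with only the compared genotypes, 12 with the replicate block, 1 with the covariate and 0 without WT replicate 2 and HEB knockout replicate 1. It was 2 to 104 without 1 array (2 without WT replicate 2, 7 without WT replicate 1, 20 without E2A knockout replicate 2, 26 without either HEB knockout array, 35 without E2A knockout replicate 1 and 104 without E2A knockout replicate 3). In E2A against HEB knockout it was 14, and in the same order 42, 6, 3, 1 and 0, 1 with all probe sets and 1 to 21 without 1 array. Cyclic loess moved the median of all genes in that comparison to -0.028 from -0.163 and the share of lower calls to 70% from 85.7%. In HEB knockout against WT it was 0 under each alternative. In gene fits that kept 2 arrays of both genotypes, 197 to 1139 genes had an unadjusted limma p under 0.05. Of all 45037 probe sets, 1404 had. Deviations of same-numbered arrays correlated at -0.28 for HEB knockout with WT, and from -0.15 to 0.15 in the other pairs. In a genotype with 2 arrays the deviations mirror each other, so these values cannot decide whether the numbers pair the arrays. The crossed pairing, added after seeing the data, gave 0 calls.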
